A study of Rattus norvegicus with 10 samples.

Results

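The matrix metalloproteinases (MMPs), the ADAMTS proteases and their tissue inhibitors (TIMPs) were followed in the renal cortex of PCK rats. The members were the protein-coding genes whose symbol is *Mmp*, *Timp* or *Adamts* followed by a number, and 44 of the 32545 genes in the deposited table met this rule. These were 22 *Mmp*, 18 *Adamts* and 4 *Timp* genes. The PCK rat (PCK/CrljCrl-Pkhd1pck/Crl) is a cystic strain with mutant *Pkhd1*, and it serves as a model of autosomal recessive polycystic kidney disease. Poly-A RNA of snap-frozen cortex was sequenced from 5 male and 5 female rats, 1 library per rat. All 10 rats carried the mutation, and libraries of rats without cysts were not analysed here, so the single comparison was of females with males. The rats came from 2 litters with different parents, and the labels do not say which rat belonged to which litter. The series text gives an age of 12 to 14 weeks and the methods one of 10 to 12 weeks.

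MMPs are zinc proteases, secreted or held in the cell membrane, that are made as inactive proenzymes and cleave collagens, laminins and many cell surface proteins. ADAMTS proteases are secreted, bind the matrix through thrombospondin repeats, and cut large proteoglycans, trim procollagens or act on fibrillin microfibrils. TIMPs bind the active site of these enzymes, and TIMP-3 is the member that is itself bound to the matrix and that also blocks several ADAMTS proteases. In the kidney, turnover of the basement membrane and the interstitial matrix involves all 3 families, and cyst expansion is accompanied by remodelling of both.

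Promoter sequences were taken from RefSeq (build GRCr8), where 33 of the 44 members were matched by symbol. Each RefSeq window spanned 250 bases before to 50 bases after the start of the gene, and both strands were searched for fixed letters. TATAAA, the core of the TATA box, was found in 12 of the 33 member windows (36.4%) and in 14.2% of all 33469 windows. TGANTCA, the site bound by AP-1 (the Jun and Fos factors), was found in 7 of 33 (21.2%) and in 7.33% of all windows. All 7 belonged to the cluster of 10 *Mmp* genes on chromosome 8, and each of these 7 windows also held TATAAA, a pair found in 1.36% of all windows. The part from 110 bases before to 10 bases after the start is shown for these 7 genes because they share this layout while their RNA levels in the cortex, given below, ran from no read to over 100 reads in a library. Each line reads 5′ to 3′ on the strand of the gene, and capitals mark both of these motifs, the GC box (GGGCGG, bound by Sp1) and the CCAAT box, in either orientation.
Mmp13 (chr8:12782719-12782838, plus strand): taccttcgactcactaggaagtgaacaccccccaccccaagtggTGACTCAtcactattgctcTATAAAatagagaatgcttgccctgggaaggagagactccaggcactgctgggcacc
Mmp12 (chr8:12866542-12866661, plus strand): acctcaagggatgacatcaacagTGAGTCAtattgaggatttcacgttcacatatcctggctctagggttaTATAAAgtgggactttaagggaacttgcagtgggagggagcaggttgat
Mmp3 (chr8:12925171-12925290, plus strand): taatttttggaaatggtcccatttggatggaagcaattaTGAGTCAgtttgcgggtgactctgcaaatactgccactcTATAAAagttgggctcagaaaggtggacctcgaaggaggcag
Mmp1 (chr8:12943343-12943462, plus strand): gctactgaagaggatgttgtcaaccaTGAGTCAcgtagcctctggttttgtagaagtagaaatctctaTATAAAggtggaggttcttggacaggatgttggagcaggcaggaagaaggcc
Mmp10 (chr8:12974597-12974716, plus strand): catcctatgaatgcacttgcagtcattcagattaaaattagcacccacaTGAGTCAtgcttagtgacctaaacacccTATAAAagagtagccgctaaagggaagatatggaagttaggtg
Mmp20 (chr8:13074169-13074288, plus strand): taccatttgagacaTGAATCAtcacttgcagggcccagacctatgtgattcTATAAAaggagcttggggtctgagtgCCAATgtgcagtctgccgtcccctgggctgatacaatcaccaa
Mmp7 (chr8:13132933-13133052, plus strand): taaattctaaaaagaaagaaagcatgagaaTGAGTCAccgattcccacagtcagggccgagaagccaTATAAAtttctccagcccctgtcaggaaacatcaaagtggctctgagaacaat

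In these 7 genes the TGANTCA began between 31 and 100 bases before the start, a place where 1.87% of all windows hold it. TATAAA lay between it and the start. Only in *Mmp12*, *Mmp3* and *Mmp10* did TATAAA begin 21 to 40 bases before the start, where 1.35% of all windows hold it. In *Mmp13*, *Mmp1*, *Mmp20* and *Mmp7* the nearest TATAAA began farther out, at 47, 42, 59 and 43 bases. Outside the cluster, none of the 23 matched members held TGANTCA, and TATAAA was found in *Adamts1*, *Adamts7*, *Adamts10* and *Mmp21*. The same stretch is shown for *Adamts1* and *Adamts2*, which had the largest fold changes among the 32 tested members, and for *Timp3*, the most abundant member.
Adamts1 (chr11:38427375-38427494, minus strand): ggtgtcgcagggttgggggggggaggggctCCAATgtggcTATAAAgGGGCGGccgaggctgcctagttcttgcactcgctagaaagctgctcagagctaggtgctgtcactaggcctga
Adamts2 (chr10:35421920-35422039, plus strand): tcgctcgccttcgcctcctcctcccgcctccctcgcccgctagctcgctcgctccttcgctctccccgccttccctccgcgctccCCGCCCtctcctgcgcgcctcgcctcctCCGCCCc
Timp3 (chr7:19459549-19459668, minus strand): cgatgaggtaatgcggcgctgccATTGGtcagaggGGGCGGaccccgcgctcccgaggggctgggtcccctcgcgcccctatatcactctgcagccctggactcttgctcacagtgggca

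*Adamts1* held a CCAAT box, TATAAA (70 bases before the start) and a GC box in a row. *Adamts2* held GC boxes and no TATAAA, and *Timp3* held a CCAAT box and a GC box. GGGCGG was present in 15 of the 33 member windows (45.5%, against 33.1% of all windows) and CCAAT in 10 (30.3%, against 37.5%). The full palindromes of the androgen response element and the estrogen response element were in 0 of the 33 member windows and in 5 and 9 of all 33469 windows. A match of letters was not tested as a binding site.

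The libraries held 13912569 to 20285911 reads on genes in males (median 14387669) and 14963924 to 19556707 in females (median 15896262). Females 2 and 4 and male 5 stood apart. Female 2 had a summed level of 12.8 FPKM (reads scaled to gene length and to a library size, here one on a median-ratio scale) over 5 urothelial markers against 0.200 to 0.763 in the other 9 libraries, and *Upk3a*, a urothelial plaque protein, had reads only there. Mitochondrial genes took 26.8% of its reads, against 14.3% to 19.1% in the other libraries, and among the females it held the lowest value of 33.9% and the highest of 29.6% of the 13363 genes averaging 1 FPKM or more. Female 4 had the lowest sum of 6 fibroblast markers, 79.4 FPKM, against 142 to 234 in the other females and 249.8 to 333 in the males. Male 5 had the lowest sum of proximal tubule markers (3400 FPKM) and the highest sums of macrophage (174 FPKM), neutrophil (14.9 FPKM) and tubule injury (7581 FPKM) markers of all 10 libraries. Among the males it held the lowest value of 26.8% and the highest of 26.4% of those 13363 genes, against 23.8% and 24.8% for female 4 among the females. In bulk tissue, fewer cells of a type and less RNA per cell cannot be told apart. The labelled tissue carried the markers of kidney cortex, with proximal tubule markers summing to 3400 to 6211 FPKM in males and 3752 to 7518 in females.

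The inhibitors led the families in level. *Timp3* had the highest mean of all members, followed by *Timp2*, *Adamts1*, *Timp1*, *Mmp14*, *Mmp2*, *Mmp24* and *Adamts10*. A mean of at least 1 FPKM over the 10 libraries was reached by 25 members, namely 9 *Mmp*, 12 *Adamts* and all 4 *Timp* genes. A mean of at least 0.1 FPKM, the limit for testing, was reached by 32 (12 *Mmp*, 16 *Adamts* and 4 *Timp*). The 12 members below it were *Mmp1*, *Mmp1b*, *Mmp3*, *Mmp8*, *Mmp10*, *Mmp11*, *Mmp13*, *Mmp21*, *Mmp27*, *Mmp28*, *Adamts19* and *Adamts20*. *Mmp1*, *Mmp1b*, *Mmp27* and *Mmp28* had no read in any library, and 9 members in all had at most 3 reads in every library, the limit of detection used here.

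**Figure D1:**
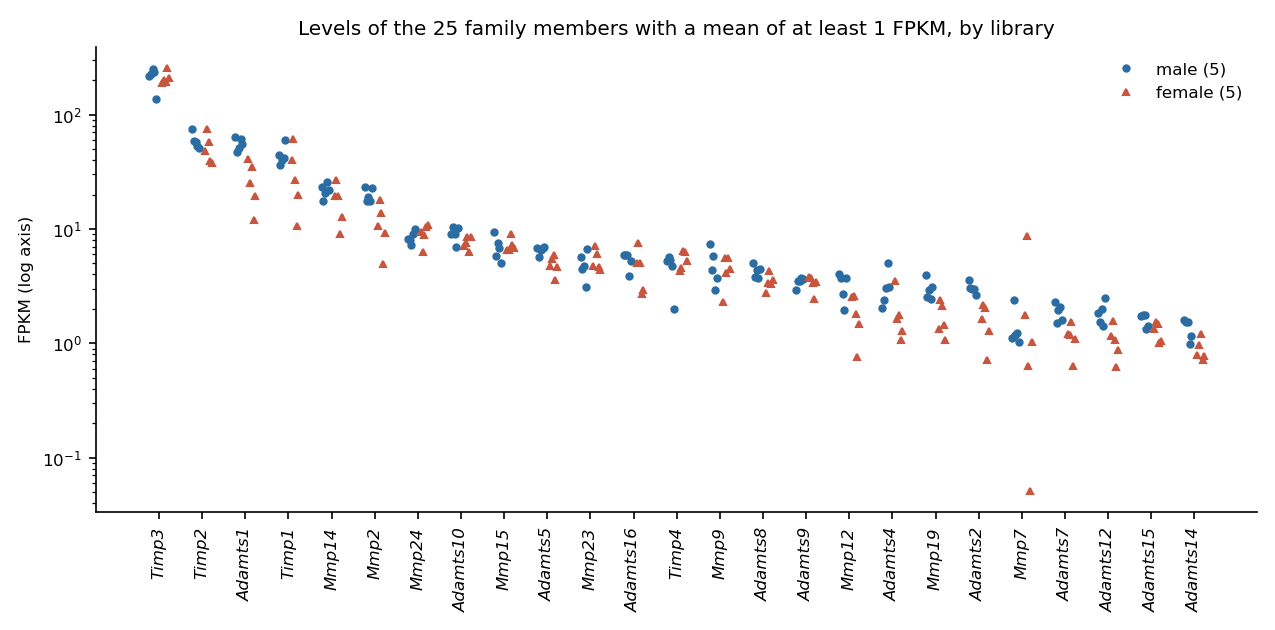
FPKM of the 25 members with a mean of at least 1 FPKM, on a log axis and ordered by mean level, with 1 point per library (circles, 5 males; triangles, 5 females). *Timp3* lies between 137 and 255 FPKM in all 10 libraries, and *Mmp7* has the widest spread, with 8.62 FPKM in female 2 and 0.0508 in female 4.

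None of the 32 tested members passed both thresholds of the comparison (by limma, a Benjamini-Hochberg adjusted p no higher than 0.05 and an absolute log2 fold change no smaller than 1), where 1.32% of all 17631 genes tested did (0.698% lower and 0.618% higher in females). At the adjusted p alone the count was again 0, against 2.4% of all genes (1.14% lower and 1.26% higher). At an unadjusted limma p of at most 0.05, 11 members were lower in females (34.4%) and 0 were higher, while 8.07% of all genes were lower and 7.67% higher. A second tool, limma-voom on the recovered reads, also gave 11 lower and 0 higher at the unadjusted p, and it placed *Adamts1* (adjusted p = 0.0403) and *Adamts2* (adjusted p = 0.0284) past both thresholds, which 1.54% of all genes passed by that tool. By an exact permutation test of the mean FPKM, two-sided over every split of the 10 libraries, 10 members were lower at p of at most 0.05 (31.2%) and 0 were higher, against 7.38% and 7.45% of all genes.

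The log2 fold change, female over male, was below 0 for 25 of the 32 tested members (78.1%) and for 51.2% of all genes, with medians of -0.29 and -0.01. It was below 0 for 15 of 16 *Adamts* genes (median -0.31), 7 of 12 *Mmp* genes (median -0.21) and 3 of 4 *Timp* genes (median -0.12). Ranges of the 2 sexes did not overlap for *Adamts1*, *Adamts2* and *Mmp19*, all lower in females (9.38% of the tested members, against 2.6% of all genes lower and 2.5% higher). Without female 4, 23 members were below 0, and 9 were lower at the unadjusted p. Without female 2 these counts were 24 and 12, and without male 5 they were 26 and 8.

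**Figure D2:**
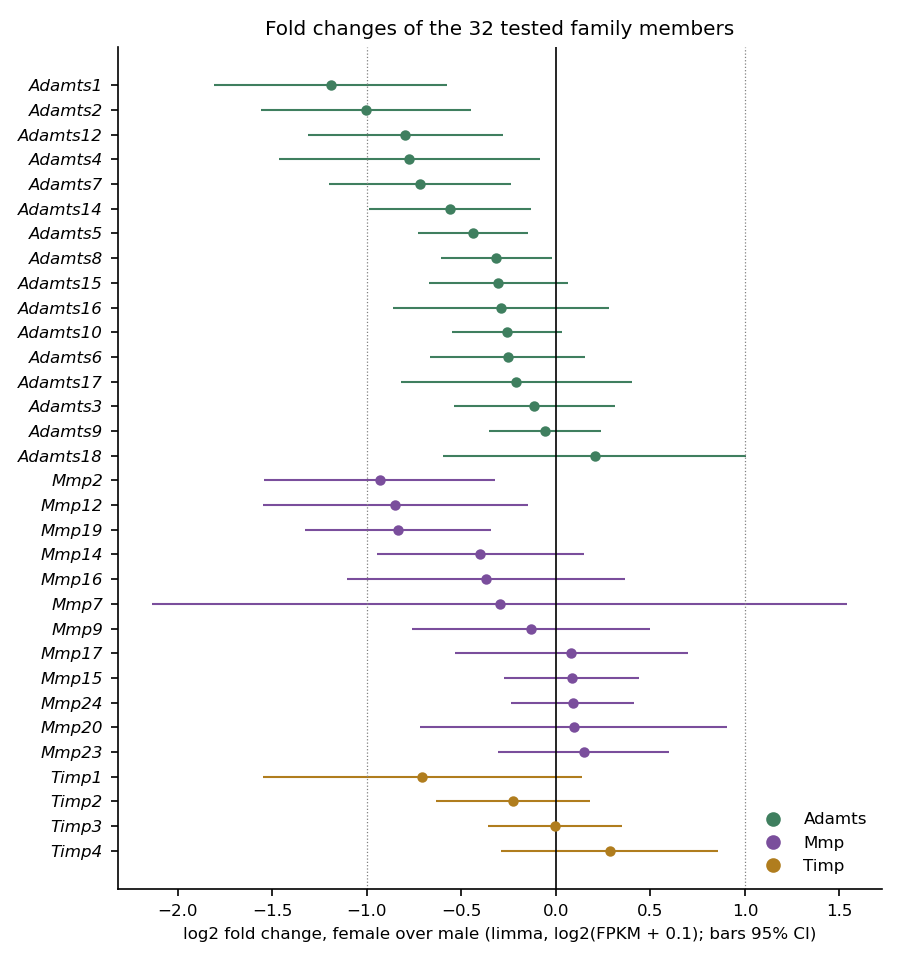
Log2 fold change, female over male, of the 32 tested members with its 95% confidence interval (limma on log2(FPKM + 0.1), 5 against 5 libraries), by family, with dotted lines at -1 and 1. Only *Adamts18* among the *Adamts* genes has a value above 0 (0.21), and *Mmp7* has the widest interval, from -2.14 to 1.54.

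Of the inhibitors, *Timp3* (ENSRNOG00000004303, chromosome 7, 23544215 to 23594133 on the minus strand of Rnor_6.0, the build of the deposited coordinates) stood at 219, 226, 251, 234 and 137 FPKM in males 1 to 5. In females 1 to 5 it stood at 187, 202, 194, 255 and 209 FPKM. Male 5 was the lowest library, and the other 9 libraries of both sexes lay close together. The means were 213 ± 44.3 and 209 ± 26.6 FPKM (SD, n = 5 each), and the log2 fold change of -0.01 had a 95% confidence interval of -0.36 to 0.35.

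*Timp1*, an inhibitor known to be induced in injured and scarred kidney, had 44.1, 36.1, 40.2, 41.7 and 60.3 FPKM in the males. The females had 39.95, 60.8, 26.8, 10.6 and 19.9 FPKM, so that female 2 was the highest and female 4 the lowest of all 10 libraries. The means were 44.5 ± 9.31 and 31.6 ± 19.5 FPKM, a log2 fold change of -0.71 (SE 0.38, limma adjusted p = 0.414). The ranges of both sexes overlapped.

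*Timp2*, which takes part in the activation of pro-MMP-2 by membrane-type MMPs, had 75.2, 58.2, 58.0, 52.9 and 50.8 FPKM in males and 47.6, 75.1, 57.9, 39.5 and 37.8 in females. *Timp4*, the least abundant inhibitor, had 5.29, 5.63, 5.30, 4.71 and 2.001 FPKM in males and 4.27, 4.59, 6.38, 6.25 and 5.28 in females. The sexes overlapped for both, with log2 fold changes of -0.23 (limma adjusted p = 0.614) and 0.29 (adjusted p = 0.664). When 1 library was left out, that of *Timp2* ran from -0.37 (without female 2) to -0.13 (without female 5). Male 5 was the lowest library for *Timp4*, as it was for *Timp3*, and without it the log2 fold changes were 0.02 for *Timp4* and -0.16 for *Timp3*.

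Among the ADAMTS proteases that cleave proteoglycans, *Adamts1* was by far the most abundant. *Adamts1* (ENSRNOG00000001607, chromosome 11, 25342126 to 25350974, minus strand), which cuts versican and aggrecan, had 64.1, 47.0, 51.0, 61.3 and 55.5 FPKM in males 1 to 5. In females 1 to 5 it had 40.7, 25.1, 34.9, 11.9 and 19.6 FPKM. Every female lay below every male, and female 4 was the lowest. The mean was 2.11 times higher in males (55.8 ± 7.07 against 26.4 ± 11.5 FPKM, SD, n = 5 each), with a log2 fold change of -1.19 (95% confidence interval -1.81 to -0.57), an adjusted p of 0.0548 by limma and an exact permutation p of 0.00794, the smallest that 5 against 5 can give. When 1 library was left out the limma adjusted p ran from 0.0264 (without female 1) to 0.144 (without female 5). It was at or below 0.05 in 2 of these fits, the other being without female 4 (0.0472, log2 fold change -0.94).

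*Adamts5*, the main aggrecanase of cartilage, lies 60 kb from *Adamts1* on the same strand with no other gene of the table between. It had 6.87, 5.72, 6.48, 6.78 and 6.88 FPKM in males and 4.78, 5.43, 5.94, 3.57 and 4.603 in females. Only female 3 exceeded a male (male 2), and the means were 6.55 ± 0.489 and 4.87 ± 0.898 FPKM, a log2 fold change of -0.44 (SE 0.13, limma adjusted p = 0.128, exact permutation p = 0.0159).

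*Adamts8* and *Adamts15* are also neighbours, 18.2 kb apart on opposite strands of chromosome 8. *Adamts8* had 4.99, 3.83, 4.38, 3.74 and 4.504 FPKM in males and 2.74, 3.36, 4.29, 3.27 and 3.55 in females, with overlap through female 3 (log2 fold change -0.32, limma adjusted p = 0.282, exact permutation p = 0.0397). *Adamts15* averaged 1.59 ± 0.212 and 1.28 ± 0.250 FPKM (log2 fold change -0.31, limma adjusted p = 0.421). *Adamts4*, an aggrecanase induced by inflammatory cytokines, averaged 3.11 ± 1.16 and 1.84 ± 0.957 FPKM, and its log2 fold change of -0.78 had an adjusted p of 0.254 by limma. *Adamts9* averaged 3.45 ± 0.323 and 3.34 ± 0.529 FPKM, and *Adamts20*, the last of the 7 proteoglycan-cleaving members, had at most 2 reads in a library. All 6 tested members of this group had a log2 fold change below 0.

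Of the procollagen N-proteinases, which remove the amino-terminal propeptide of fibrillar procollagens, *Adamts2* (ENSRNOG00000061484, chromosome 10, 36098051 to 36304409, plus strand) had 3.61, 3.04, 2.97, 2.999 and 2.66 FPKM in males 1 to 5. In females 1 to 5 it had 1.62, 2.15, 2.03, 0.715 and 1.29 FPKM. The highest female lay below the lowest male, and female 4 was again the lowest library. The mean was 1.96 times higher in males (3.06 ± 0.344 against 1.56 ± 0.584 FPKM), with a log2 fold change of -1.01 (95% confidence interval -1.56 to -0.45), a limma adjusted p of 0.0704 and an exact permutation p of 0.00794. When 1 library was left out the limma adjusted p ran from 0.0434 (without female 2, the only fit at or below 0.05) to 0.166 (without female 5), and the log2 fold change from -1.14 to -0.77.

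*Adamts14*, of the same function, had 1.59, 1.54, 1.53, 0.993 and 1.16 FPKM in males and 0.796, 0.963, 1.21, 0.709 and 0.775 in females. Female 3 exceeded males 4 and 5, and the log2 fold change of -0.56 had an adjusted p of 0.183 by limma and an exact permutation p of 0.0317. *Adamts3*, the remaining N-proteinase, had 27 to 39 reads in every library, and its log2 fold change was -0.11 (adjusted p = 0.836 by limma).

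*Adamts7* and *Adamts12*, which bind and cleave cartilage oligomeric matrix protein, stood at similar levels. *Adamts7* had 2.29, 1.496, 1.95, 2.07 and 1.62 FPKM in males and 1.22, 1.18, 1.53, 0.629 and 1.09 in females. *Adamts12* had 1.85, 1.55, 1.98, 1.43 and 2.499 FPKM in males and 1.15, 1.55, 1.07, 0.618 and 0.869 in females. For each gene a single female exceeded the lowest male, female 3 for *Adamts7* and female 2 for *Adamts12*. The log2 fold changes were -0.72 (limma adjusted p = 0.127, exact permutation p = 0.0159) and -0.80 (limma adjusted p = 0.117, exact permutation p = 0.0238).

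The other 6 ADAMTS genes showed smaller differences or few reads. *Adamts10*, which binds fibrillin, was the most abundant of them, with 9.01, 10.4, 8.98, 6.88 and 10.2 FPKM in males and 7.06, 7.47, 8.52, 6.23 and 8.52 in females. The ranges overlapped (log2 fold change -0.26, limma adjusted p = 0.378). *Adamts16* averaged 5.38 ± 0.890 and 4.64 ± 1.95 FPKM, *Adamts6* 0.668 and 0.546, *Adamts17* 0.279 and 0.221, and *Adamts18* 0.0959 and 0.130 FPKM in males and females, each with an adjusted p above that of *Adamts10*. *Adamts19* had 1 to 7 reads per library and was not tested.

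**Figure D3:**
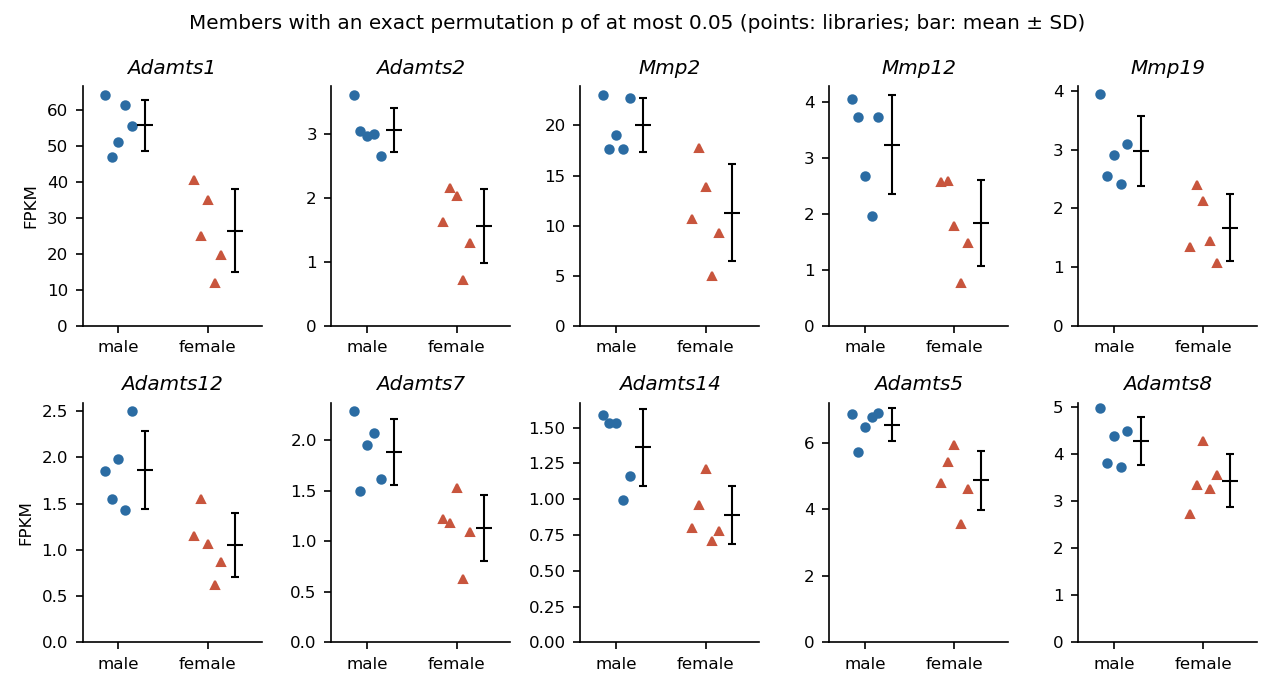
FPKM of the 10 members with an exact permutation p of at most 0.05, with 1 point per library (circles, males; triangles, females) and the mean ± SD of 5 rats beside them, each panel starting at 0. The sexes do not overlap for *Adamts1*, *Adamts2* and *Mmp19*, and female 4 is the lowest library for *Adamts1* (11.9 FPKM), *Adamts2* (0.715 FPKM) and *Mmp2* (4.95 FPKM).

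The gelatinases are *Mmp2* and *Mmp9*. *Mmp2* (ENSRNOG00000016695, chromosome 19, 15542765 to 15570611, minus strand), which cleaves type IV collagen and denatured collagen and is made largely by stromal cells, had 23.0, 17.7, 19.1, 17.7 and 22.7 FPKM in males. The females had 10.7, 17.7, 13.9, 4.95 and 9.27 FPKM, and only female 2 reached the level of the lowest males. The means were 20.05 ± 2.65 and 11.3 ± 4.82 FPKM, a log2 fold change of -0.93 (95% confidence interval -1.54 to -0.32, limma adjusted p = 0.123, exact permutation p = 0.0238). When 1 library was left out the limma adjusted p ran from 0.0453 (without female 2, the only fit at or below 0.05) to 0.256 (without female 5), and without female 4 the log2 fold change was -0.67. *Mmp9*, the gelatinase of neutrophils and macrophages, had 7.45, 4.34, 5.77, 2.93 and 3.75 FPKM in males and 2.29, 5.55, 4.12, 5.54 and 4.45 in females. The male range enclosed 4 of the 5 females, and the log2 fold change was -0.13 (limma adjusted p = 0.877, 95% confidence interval -0.76 to 0.50). Whether the difference of *Mmp2* exceeded that of *Mmp9* was not tested.

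Of the membrane-type MMPs, *Mmp14*, which activates pro-MMP-2 at the cell surface, had 23.1, 17.5, 20.7, 25.5 and 22.0 FPKM in males and 19.6, 26.7, 19.3, 9.12 and 12.6 in females. Female 2 was the highest and female 4 the lowest of all libraries (log2 fold change -0.40, limma adjusted p = 0.481). The fold change ran from -0.58 to -0.19 when 1 library was left out. *Mmp24*, the type 5 enzyme, had 8.20, 8.03, 7.29, 9.10 and 10.01 FPKM in males and 9.49, 6.33, 8.84, 10.4 and 10.8 in females. Here female 4 was among the higher libraries, and the log2 fold change of 0.09 (95% confidence interval -0.24 to 0.41) turned to -0.03 with libraries scaled to equal FPKM sums. *Mmp15* averaged 6.92 ± 1.65 and 7.24 ± 1.05 FPKM (log2 fold change 0.08, -0.04 with equal sums). *Mmp16* had 4 to 14 reads per library and a mean of 0.138 FPKM, near the limit for testing, and *Mmp17* had 17 to 51 reads.

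*Mmp19* (ENSRNOG00000006778, chromosome 7, 3216497 to 3224201, plus strand), a secreted enzyme that degrades basement membrane proteins, had 3.94, 2.55, 2.91, 2.42 and 3.10 FPKM in males 1 to 5. In females 1 to 5 it had 1.34, 2.41, 2.13, 1.44 and 1.07 FPKM. The ranges did not overlap, but female 2 (2.41 FPKM) and male 4 (2.42 FPKM) nearly met, and female 5 was the lowest. The means were 2.98 ± 0.600 and 1.68 ± 0.567 FPKM, a log2 fold change of -0.83 (95% confidence interval -1.33 to -0.34, limma adjusted p = 0.0891, exact permutation p = 0.00794), and when 1 library was left out the adjusted p ran from 0.0387 (without female 2, the only fit at or below 0.05) to 0.191 (without female 5). *Mmp23*, an MMP anchored by its amino terminus, averaged 4.94 ± 1.35 and 5.40 ± 1.17 FPKM (log2 fold change 0.15, limma adjusted p = 0.792). *Mmp21* had at most 2 reads in a library.

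The cluster whose promoters are printed above holds 10 *Mmp* genes within 378 kb of chromosome 8 (5522739 to 5901049 in Rnor_6.0), in the order *Mmp13*, *Mmp12*, *Mmp1b*, *Mmp3*, *Mmp1*, *Mmp10*, *Mmp8*, *Mmp27*, *Mmp20* and *Mmp7*, with no other gene of the table between them. Most of it gave little or no RNA in the cortex. No read fell on 3 of the 10 genes, 5 had at most 3 reads in every library (these 3 included), 3 were tested and 2, *Mmp12* and *Mmp7*, had a mean of at least 1 FPKM. The pair of TATAAA and TGANTCA was present in both of these, in *Mmp1* with no read and in *Mmp10* with 1 read over all libraries.

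*Mmp12*, the macrophage elastase, had 4.05, 3.73, 2.67, 1.95 and 3.73 FPKM in males and 2.56, 2.58, 1.79, 0.758 and 1.47 in females. The highest females lay within the male range and female 4 was the lowest (log2 fold change -0.85, limma adjusted p = 0.220, exact permutation p = 0.0317). The summed level of 6 macrophage markers was 89.5 to 174 FPKM in males and 41.8 to 103 in females, with female 4 the lowest, and its part in the values of *Mmp12* was not tested.

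*Mmp7* (matrilysin), an epithelial enzyme produced by stressed tubules, had 1.11, 2.37, 1.19, 1.22 and 1.02 FPKM in males and 1.77, 8.62, 0.640, 0.0508 and 1.02 in females. Female 2 had 135 reads and female 4 had 1 read, so the females held both ends of the range. The mean was higher in females (2.42 ± 3.52 against 1.38 ± 0.559 FPKM) while the log2 fold change was -0.30 (SE 0.84, limma adjusted p = 0.908), which turned to 0.44 without female 4. *Mmp13*, a collagenase, had 12 reads in female 2, 1 read in male 2 and no read in the other 8 libraries. Female 2 was also the library with urothelial markers, and the part of those cells in its *Mmp7* and *Mmp13* reads was not tested. *Mmp8*, the neutrophil collagenase, had 0 to 7 reads, and *Mmp20*, the enamel enzyme, 2 to 20 reads.

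**Figure D4:**
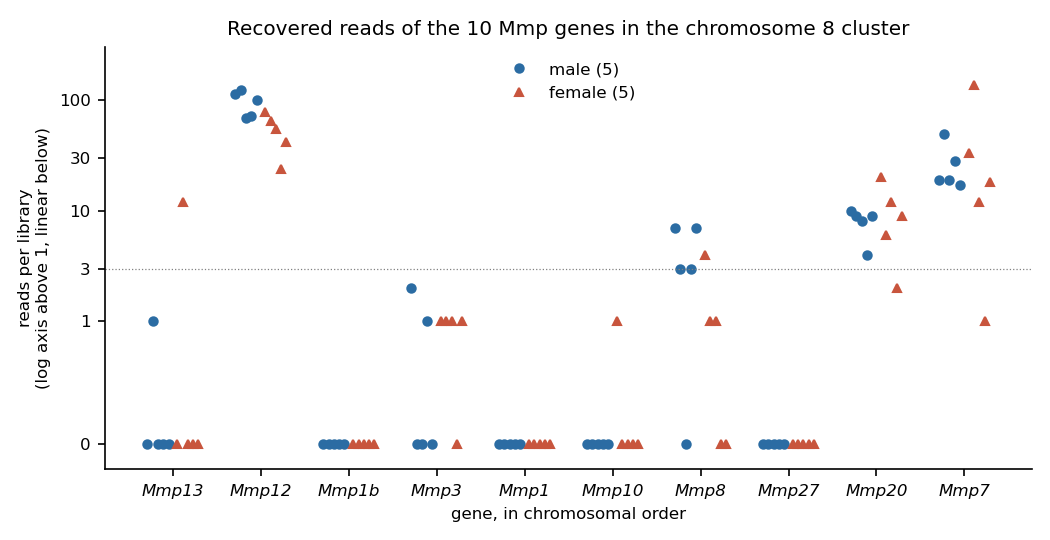
Reads recovered from the FPKM for the 10 *Mmp* genes of the chromosome 8 cluster, in chromosomal order, with 1 point per library (circles, males; triangles, females) on an axis that is logarithmic above 1 and linear below, and a dotted line at 3 reads. *Mmp1b*, *Mmp1* and *Mmp27* are at 0 in all 10 libraries, and *Mmp7* runs from 1 to 135 reads.

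Summed over each family, the *Adamts* genes gave 109, 89.8, 95.2, 101 and 100.3 FPKM in males 1 to 5 and 75.2, 62.9, 72.7, 36.3 and 50.2 in females 1 to 5. These sums did not overlap, and *Adamts1* made up 52.3% to 60.5% of them in males and 32.9% to 54.1% in females. The *Mmp* sums ran from 67.1 to 87.0 FPKM in males and from 45.0 to 84.8 in females, and the *Timp* sums from 250.3 to 355 and from 272 to 342 FPKM, both with overlap. *Timp3* supplied 54.8% to 70.8% of the *Timp* sum in males and 58.9% to 81.9% in females. The sum of the inhibitors over that of the proteases was 1.76, 2.07, 2.11, 1.92 and 1.40 in males and 2.06, 2.32, 2.04, 3.82 and 2.64 in females. Female 4 had the highest ratio, and male 5, with the least *Timp3*, the lowest. No test was made on these sums.

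The 10 libraries contributed unevenly. Of the 25 members with a mean of at least 1 FPKM, 16 had their lowest value in female 4, both among the females and among all 10 libraries, and 13 had their highest female value in female 2. Over all 13363 genes at that level, 23.8% had their lowest female value in female 4 and 29.6% their highest in female 2. Male 1 held the highest male value for 11 members and male 4 the lowest for 11, where 17.6% of all genes had their highest male value in male 1 and 21.9% their lowest in male 4. The coefficient of variation was larger in females for 19 of the 25 members (76%, against 63.1% of all genes), with a median of 29.7% in females and 17.3% in males (16.2% and 13.0% over all genes), and in all 25 it exceeded the value from read counting alone in both sexes. The sum of the fibroblast markers was 332, 266, 254, 249.8 and 333 FPKM in males and 191, 234, 190, 79.4 and 142 in females. All 6 fibroblast markers had a log2 fold change below 0, although the mean FPKM of *Lum* was higher in females (1.02 against 0.847). Of these, *Col1a1*, *Col1a2*, *Col3a1* and *Dcn* are also in the list of matrix substrates below, so these lists are not independent. The others, *Pdgfra* (without overlap of the sexes) and *Lum*, had log2 fold changes of -0.30 and -0.09. Other marker lists also had most genes below 0, namely smooth muscle and pericyte (4 of 5, median -0.51), macrophage (5 of 6, median -0.51), lymphocyte (5 of 5, median -1.19), neutrophil (4 of 4, median -0.58) and tubule injury (5 of 6, median -0.68), each with its lowest female sum in female 4. All tested markers were above 0 for intercalated cells (4, median 0.58), collecting duct principal cells (4, median 0.36), thick ascending limb and distal convoluted tubule (3, median 0.35), podocytes (4, median 0.26) and urothelium (4, median 1.14, with *Upk1a* higher in every female than in every male), and the intercalated sums did not overlap (120.3 to 185 FPKM in males and 198 to 295 in females). The urothelial median lay between *Upk3a*, with reads only in female 2, and *Upk2*, at 3.02 FPKM in female 2 and at most 0.0764 elsewhere. *Upk1a* had 1 to 51 reads per library, and 0.0554 to 0.121 FPKM in the males. The proximal tubule sum was highest in female 4 (7518 FPKM). The part of these cell types in the differences of the proteases was not tested. Markers of tubule injury summed to 3678 to 7581 FPKM in males and 1134 to 5998 in females, again with female 4 the lowest, whereas endothelial markers summed to 86.4 to 114 and 83.4 to 132.

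**Figure D5:**
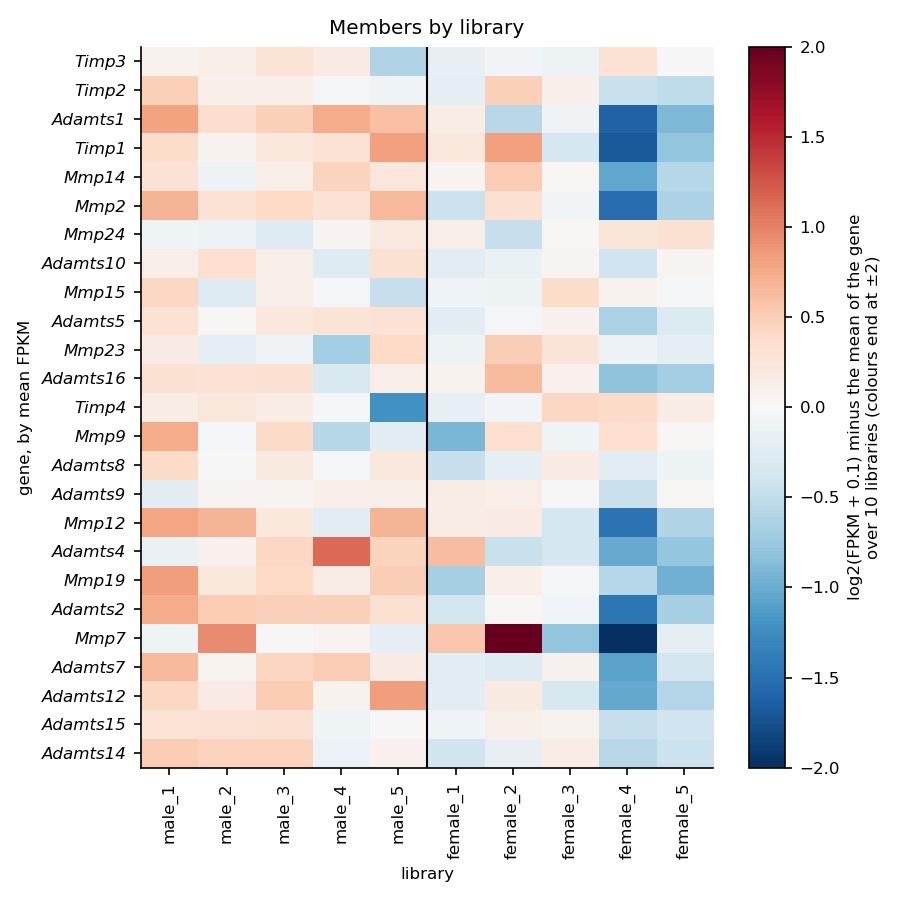
Log2(FPKM + 0.1) of the 25 members with a mean of at least 1 FPKM, each minus its mean over the 10 libraries (red higher, blue lower), with males on the left of the black line and females on the right. Female 4 is the lowest library for 16 of the 25 members, and *Mmp7* in female 2 and female 4 reaches the end of the colour scale.

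Other genes of the same pathway were read from 6 lists. In the 26 matrix substrates found in the table, 22 were tested, of which 2 were lower and 1 higher in females at the adjusted p (limma), against 1.14% and 1.26% of all genes. At the unadjusted p, 10 of the 22 were lower and 1 was higher (8.07% and 7.67% of all genes). Those 10 include the fibroblast markers *Col1a1*, *Col1a2*, *Col3a1* and *Dcn*. A log2 fold change below 0 was found for 20 of the 22 (median -0.51, with 51.2% of all genes below 0). *Nid1* (nidogen, which links laminin to type IV collagen) had 61.5, 51.3, 52.9, 50.3 and 68.8 FPKM in males and 32.9, 38.5, 36.2, 19.2 and 25.4 in females. All females lay below all males, with a log2 fold change of -0.94 (SE 0.18, limma adjusted p = 0.0212). The call was lost without male 1, 3 or 5 or female 5 (adjusted p up to 0.0693). *Col3a1* (type III collagen), also a fibroblast marker of the list above, averaged 81.8 ± 13.1 and 39.5 ± 14.9 FPKM (log2 fold change -1.14, limma adjusted p = 0.0477), and the call was lost in 7 of the 10 fits that left out 1 library, each of the 5 males or female 1 or 5.

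*Vwf* (von Willebrand factor), the substrate of ADAMTS13, moved the other way. It had 3.55, 4.32, 3.16, 3.94 and 4.69 FPKM in males and 8.19, 5.78, 8.55, 10.4 and 14.0 in females. All females lay above all males, and the log2 fold change of 1.19 (SE 0.21, limma adjusted p = 0.0118) stayed past both thresholds when any 1 library was left out. No deposited gene carried the symbol *Adamts13*, so it was not analysed here. Among the other abundant substrates, the proteoglycans *Bgn* and *Dcn* averaged 132 and 137 FPKM in males and 99.1 and 85.8 in females (limma adjusted p = 0.360 and 0.267), and *Col4a1*, of the basement membrane, 106 and 60.5 FPKM (adjusted p = 0.0639).

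Of 8 other inhibitors and clearance receptors, *A2m* (alpha-2-macroglobulin, which traps proteases of all classes) was lower in females at the adjusted p (0.0295 by limma), on 9 to 45 reads per male library and 1 to 4 per female library. Its log2 fold change of -1.64 depends on the pseudocount at so few reads, and the call was lost in 8 of the 10 fits that left out 1 library, all but male 2 and female 2. *Lrp1*, the receptor that clears protease and inhibitor complexes, averaged 6.52 ± 1.23 and 4.21 ± 1.09 FPKM without overlap (limma adjusted p = 0.126), and *Reck*, a membrane inhibitor of MMPs, 7.94 and 6.83 FPKM with overlap. The most abundant gene of this list was *Clu* (clusterin), at 595 ± 81.2 and 593 ± 344 FPKM, and *Vldlr* averaged 10.6 and 9.41 FPKM. None of the 10 tested genes in the list of the plasmin system and of pro-MMP activators passed the adjusted p. At the unadjusted limma p, 2 were lower and 1, the convertase *Pcsk6*, was higher (8.07% and 7.67% of all genes). The urokinase gene *Plau* of the plasmin system averaged 427 ± 87.0 and 456 ± 109 FPKM. *Bsg* (basigin, an inducer of MMPs) averaged 691 ± 38.8 and 756 ± 109.9 FPKM. *Furin*, the convertase that cleaves membrane-type MMPs, averaged 65.0 ± 15.2 and 62.3 ± 11.2 FPKM. The ADAMTS-like genes (5 tested), the ADAM sheddases (8 tested) and the other metzincins and ectopeptidases (8 tested) also had 0 at the adjusted p, with 2, 2 and 1 genes lower and 0, 1 and 1 higher at the unadjusted p, where 8.07% of all genes were lower and 7.67% higher. *Adam9* averaged 29.5 ± 2.54 and 24.02 ± 1.599 FPKM without overlap (limma adjusted p = 0.0903), and the meprin gene *Mep1a* 132 ± 24.0 and 199 ± 54.9 FPKM with overlap (adjusted p = 0.205). The ADAM sheddases *Adam10* and *Adam17* averaged 20.2 and 13.8 FPKM in males and 19.5 and 13.0 in females, and the ectopeptidases *Anpep* and *Mme* 162 and 74.4 in males and 171 and 58.1 in females. Of the ADAMTS-like genes, *Adamtsl2* averaged 11.03 and 8.66 FPKM, *Adamtsl4* 8.04 and 6.62 FPKM, and *Adamtsl1* 2.04 and 1.45 FPKM in males and females.

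*Timp1*, *Timp3* and *Timp4* each lie inside a synapsin gene on the opposite strand (*Syn1*, *Syn3* and *Syn2*), and the sources used here do not say whether strand was used in counting. The synapsin genes had 5 to 22, 28 to 64 and 8 to 25 reads per library, and in all 10 libraries each was below its *Timp* gene in FPKM. *Timp2* shares its strand with the overlapping gene *Cep295nl*, which had 0 to 6 reads.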

How the data were processed

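Libraries of renal cortex from 5 males and 5 females were grouped by the sex in the sample labels. The authors had libraries sequenced and mapped with HISAT2 (2.0.5) to Rnor_6.0, and deposited 1 table of FPKM for 32545 genes. The submitters' processing notes also name featureCounts (1.5.0-p3), StringTie (1.3.3b) and fastp. All 10 value columns were used. Dividing each FPKM by the worth of 1 read at the deposited gene length gave whole reads (tolerance 0.01), which gave depth per library and the detection limit of 3 reads. The deposited values already lay on a median-ratio scale, since the factor was 1.01 in every library.

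limma 3.58.1 in R 4.3.3 (lmFit, eBayes with trend) compared females with males on log2(FPKM + 0.1), with no covariate, after genes averaging below 0.1 FPKM were dropped. The Benjamini-Hochberg adjustment ran over all 17631 tested genes. Fold changes on this scale understate those of low genes. For each member, the difference in mean FPKM was also tested by exact permutation, two-sided. Both tests measure the spread between rats, 5 in each group. Scripts ran in Python 3.11.15 with pandas 2.3.3 and scipy 1.17.1. The limma step was tested on simulated data with larger changes than those of any member and the same spread in both sexes. That test does not show how often changes of the members' size would be found.

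Values in every library were given for members past either limma rule (none), members with an exact p of at most 0.05, the 8 members with the highest mean, *Timp1* to *Timp4*, and *Mmp2*, *Mmp7*, *Mmp9* and *Mmp14*. Linked genes were named when past the adjusted p or among the 3 with the highest mean of their list. *Lrp1*, *Pcsk6*, *Lum*, *Pdgfra*, *Col1a1*, *Col1a2*, *Upk1a*, *Upk2* and *Upk3a* were named after their values were seen, as were the motif positions. The members, lists and motifs were chosen with earlier results of these data known. Replicate numbers did not pair the rats: same-numbered male and female libraries had correlations of -0.10 to 0.07 in their deviations from the group means. The alternatives were a pseudocount of 1 or 0.01, a minimum mean of 1 FPKM or none, scaling by median ratios, equal sums or quantiles, limma-voom on reads, a replicate block, robust eBayes, eBayes with no trend, and omission of each library.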

Additional observations from a re-analysis of the deposited data

Results flagged for a closer look

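Of 76 groups of 5 libraries tested for a single library far from the others, 9 were picked out. The groups were of the 35 members with more than 3 reads in some library and of the family sums. Chance alone picks about 1 in 20 when values are normally distributed, which was not tested here. *Timp3* was lowest in male 5 (137.2 FPKM, the other males 219 to 251), as were *Timp4* (2.001 FPKM, the others 4.71 to 5.63) and the sum of the inhibitors (250.3 FPKM, the others 326 to 355). *Adamts9* was lowest in male 1 (2.904 FPKM, the others 3.49 to 3.695). *Adamts4* was highest in female 1 (3.479 FPKM, the others 1.06 to 1.76). *Mmp7* was highest in male 2 (2.372 FPKM, the others 1.02 to 1.22) among the males and in female 2 (8.62 FPKM, the others 0.0508 to 1.77) among the females. *Mmp13* had its single male value in male 2 (0.02069 FPKM, 1 read) and its single female value in female 2 (0.3275 FPKM, 12 reads). A group whose other values are all 0, as in *Mmp13*, is picked out whatever the value.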

How the results depend on the processing

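The count of members past both thresholds was 0 of 32, against 1.32% of all genes. With a filter at a mean of 1 FPKM it became 1 of the 25 then tested (*Adamts1*, adjusted p = 0.0477 by limma), against 1.33%. It became 2 (*Adamts1* and *Adamts2*) with limma-voom, against 1.54%, and 0 to 2 when 1 library was left out, against 0.97% to 1.47%. At the adjusted p alone it became 1 (*Adamts2*) with a pseudocount of 1, against 2.35% of all genes. It became 1 with the filter at 1 FPKM (2.85% of all genes), 2 with limma-voom (2.86%), and 0 to 3 when 1 library was left out (1.47% to 3.08%). The 3 came without female 2 (*Mmp2*, *Mmp19* and *Adamts2*). There the calls over all genes also went from 424 to 543, the most of any fit that left out 1 library. The count of members stayed at 0 under both rules with the replicate block. That block reduced the linked genes past both thresholds from 3 to 1 and those at the adjusted p alone from 4 to 1 (*Vwf* in each case). The linked counts were 5 and 7 with limma-voom, and 1 to 7 and 1 to 9 when 1 library was left out, both highest without female 2. The cause of these shifts was not tested. The members lower at the exact permutation p of at most 0.05 numbered 7 to 12 when 1 library was left out (7 without female 4 and 7 without female 5), and *Adamts1*, *Adamts2*, *Adamts5*, *Adamts7*, *Adamts12*, *Mmp2* and *Mmp19* stayed at or below it in all 10 fits. Scaling to equal FPKM sums shifted the median of all genes by -0.12 and turned the calls of all genes at the adjusted p from 52.6% higher to 35.6% higher.

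Median-ratio scaling multiplied every library by the same factor and so tested nothing, since the deposited values were already on that scale. Of 665 values over 32 members and 21 alternatives, this one included, 23 changed sign, all for members with an adjusted p of 0.792 or higher by limma. With equal sums these were *Mmp24* (-0.0318), *Mmp15* (-0.0352) and *Mmp17* (-0.0238), with quantile normalization *Adamts9* (0.0383) and *Adamts3* (0.0008), and with a pseudocount of 1 *Mmp7* (0.0818). When 1 library was left out, the log2 fold change ran from -0.1591 to 0.0592 for *Timp3*, from -0.0203 to 0.1992 for *Mmp15*, from -0.0056 to 0.2659 for *Mmp23*, from -0.2885 to 0.0814 for *Mmp9*, from -0.1158 to 0.0483 for *Adamts9*, from -1.0270 to 0.4363 for *Mmp7*, from -0.0830 to 0.2222 for *Mmp17* and from -0.1121 to 0.3339 for *Mmp20*.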
